A study of Mus musculus with 14 samples.

Results

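The Hippo pathway genes described here were 10 genes of the count table, taken by a fixed list of symbols: the coactivators *Yap1* and *Wwtr1* (which encodes TAZ), the DNA-binding factors *Tead1*, *Tead2*, *Tead3*, and *Tead4*, the kinases *Lats1* and *Lats2*, *Nf2* (which encodes merlin), and *Amotl2*. The table holds 24062 genes, and all 10 passed the expression filter of every comparison. Bulk RNA-seq of whole tissue from 14 mice was compared. The 3 controls (DRG3, DRG4, and DRG5) were dorsal root ganglia (DRGs) with their nerves from *Nf1* fl/fl mice, which carry floxed *Nf1* without Cre. The plexiform neurofibromas (PNs) came from *Dhh-Cre;Nf1* fl/fl mice, in which the desert hedgehog promoter drives Cre in the Schwann cell (SC) lineage, so that other cells of the tumor keep *Nf1*. By MRI at 7 and 9 months, 5 PNs that changed in volume by under 5 mm3 in 2 months were slow growing (1079, 1198A, 1202, 1203, and 1206), and 6 that grew by over 35 mm3 were fast growing (1053, 1071, 1179, 1191, 1214, and 1216). All mice were on the mixed C57BL/6, I-129 and FVBN background, were not treated with a drug, and were collected at 9 months. The labels name 1 mouse per library and give no sex or batch.

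In the Hippo pathway, the MST kinases, helped by merlin and other membrane-linked proteins, activate the LATS kinases. LATS phosphorylates YAP and TAZ, which keeps them in the cytoplasm. Without that phosphorylation YAP and TAZ enter the nucleus, bind TEAD factors, and switch on genes such as *Ccn1*, *Ccn2*, and *Ankrd1*, as well as the pathway's own inhibitors *Lats2* and *Amotl2*. In SCs, YAP and TAZ with TEAD1 are needed for proliferation and myelination, and loss of *NF2* causes schwannomas. Phosphorylation is not seen in RNA, so the values below are transcript levels only.

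TEAD factors bind a short DNA motif, searched here as CATTCC or, on the other strand, GGAATG. In windows from 250 bases before to 50 bases after a transcription start, 14.7% of 32851 mouse windows held these letters, as did 16.6% of 27025 genes in at least 1 window. Of the 8 pathway genes with a window, 5 held them (*Yap1*, *Wwtr1*, *Lats2*, *Tead3*, and *Amotl2*). *Tead1* and *Tead4* had no window in the table. The 250 bases before the start of *Yap1*, *Wwtr1*, and *Amotl2* are shown because these genes connect the pathway to its own output, and those of *Ccn1* and *Ankrd1* because they are its best-known readouts. Sequences are RefSeq's on GRCm38.p6, 5′ to 3′ on the gene's strand, with the motif in capitals. Starts here are RefSeq's, and those of *Amotl2* and *Ankrd1* lie inside the longer GENCODE spans given with their levels. A match is a description of letters, not a measured binding site.
Yap1, chr9:8004597-8004846 (minus strand): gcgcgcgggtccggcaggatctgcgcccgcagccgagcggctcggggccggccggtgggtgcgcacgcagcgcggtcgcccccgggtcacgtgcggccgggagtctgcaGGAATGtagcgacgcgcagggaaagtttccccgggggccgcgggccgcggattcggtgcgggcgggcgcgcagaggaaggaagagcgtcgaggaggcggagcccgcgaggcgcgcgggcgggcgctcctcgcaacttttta
Wwtr1, chr3:57575911-57576160 (minus strand): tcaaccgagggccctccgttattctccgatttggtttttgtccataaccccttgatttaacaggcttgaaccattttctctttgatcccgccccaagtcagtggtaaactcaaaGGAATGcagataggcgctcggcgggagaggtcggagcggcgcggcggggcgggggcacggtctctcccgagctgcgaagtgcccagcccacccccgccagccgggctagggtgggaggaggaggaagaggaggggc
Amotl2, chr9:102717554-102717803 (plus strand): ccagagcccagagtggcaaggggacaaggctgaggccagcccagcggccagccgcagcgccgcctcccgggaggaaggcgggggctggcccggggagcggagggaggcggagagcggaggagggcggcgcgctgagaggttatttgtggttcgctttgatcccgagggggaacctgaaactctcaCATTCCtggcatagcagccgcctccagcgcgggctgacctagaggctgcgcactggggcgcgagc
Ccn1, chr3:145649986-145650235 (minus strand): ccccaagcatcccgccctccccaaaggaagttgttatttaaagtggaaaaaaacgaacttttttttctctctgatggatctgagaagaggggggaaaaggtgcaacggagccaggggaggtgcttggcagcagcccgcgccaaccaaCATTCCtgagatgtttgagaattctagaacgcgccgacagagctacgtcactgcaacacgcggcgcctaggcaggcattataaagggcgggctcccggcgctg
Ankrd1, chr19:36119845-36120094 (minus strand): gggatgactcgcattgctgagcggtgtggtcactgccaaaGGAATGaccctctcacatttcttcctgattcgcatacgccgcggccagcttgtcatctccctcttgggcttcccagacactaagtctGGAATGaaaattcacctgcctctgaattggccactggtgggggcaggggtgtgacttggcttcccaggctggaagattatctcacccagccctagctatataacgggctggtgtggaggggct
The first base of the motif lay 141 bases before the start in *Yap1*, 136 in *Wwtr1*, 65 in *Amotl2*, and 103 in *Ccn1*. *Ankrd1* held it at 210 and 123 bases before the start.

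Libraries held between 9596773 and 17594164 counts on genes, so that 3 counts, the smallest level read as present, stood for 0.166 to 0.317 CPM (counts scaled to a common library size, here after TMM normalization). Floors cover counting error only. SC markers were abundant in every library, with summed levels of 3414 to 9988 CPM over 7 genes in controls and 6435 to 15778 CPM in PNs. A pair of PNs stood apart. The 6 neuron markers, which a dorsal root ganglion should hold, summed to 14.3 CPM in fast-growing PN 1191 and to 9255 CPM in slow-growing PN 1203, against 1128 to 5839 CPM in the other 12 libraries. PN 1203 had the lowest level of all libraries in 5 of the 10 genes, and PN 1191 had the highest in 4. Results are therefore also given without them. Controls also held skeletal muscle (15 markers, 4093 to 16630 CPM) and fat (13 markers, 4378 to 6209 CPM) transcripts above the levels of the PNs, which had 45.3 to 3808 CPM and 45.6 to 3547 CPM. In whole tissue, fewer cells of a type and less RNA per cell cannot be told apart.

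To ask how abundant the pathway's transcripts were relative to each other, levels were divided by the length of the longest annotated transcript. In controls *Tead1* was highest, at 23.7 ± 2.71 CPM per kb (SD, n = 3), within the spread of *Lats2* at 22.1 ± 3.80 and *Wwtr1* at 17.5 ± 5.45. *Lats1* followed at 13.1 ± 0.582, *Nf2* at 10.6 ± 1.08, and *Yap1* at 10.4 ± 3.24 CPM per kb, the last a pair that did not differ beyond its spread. *Amotl2* lay lower, at 5.57 ± 1.82 CPM per kb. *Tead4*, *Tead2*, and *Tead3* were the least abundant, at 1.71 ± 0.309, 0.760 ± 0.227, and 0.758 ± 0.566 CPM per kb. In fast-growing PNs *Tead1* stayed first, at 37.9 ± 8.64 CPM per kb (SD, n = 6), *Wwtr1* came next, at 31.7 ± 7.65, and *Tead4* was last, at 0.769 ± 0.189. Both ends of this order depended on the length used: over all annotated exons, *Wwtr1* (31.1 ± 7.52 CPM per kb) exceeded *Tead1* (27.8 ± 6.35) in fast-growing PNs, and *Tead3* (0.640 ± 0.291) was last, below *Tead4* (0.657 ± 0.162), in each case by less than their spread.

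In fast-growing PNs compared with controls, the TAZ gene *Wwtr1*, the kinase gene *Lats1*, and *Tead1* were higher and *Tead4* was lower. The other 6 genes did not pass the test. By the quasi-likelihood test of edgeR, with p adjusted over all genes by the method of Benjamini and Hochberg and called under 0.05, 4 of the 10 genes passed, and so did 31.4% of the 16037 genes tested in this comparison (14.8% higher and 16.7% lower). The share for the pathway was thus near that of all genes. The median log2 fold change of the 10 was 0.46, beside 0.02 over all genes. In slow-growing PNs compared with controls, 0 of the 10 genes were called by edgeR, 2 had an unadjusted p under 0.05, and DESeq2 called 2 (*Lats1* and *Lats2*, higher). Of all 15714 genes, edgeR called 11.3%, 30.3% had an unadjusted p under 0.05, and DESeq2 called 22.5%, and the median log2 fold change was 0.26 beside 0.04 over all genes. Without PN 1203, still 0 of the 10 genes were called in slow-growing PNs, and the log2 fold changes of *Wwtr1* (0.44, adjusted p = 0.241), *Yap1* (0.44, 0.215), *Tead1* (0.50, 0.128), *Amotl2* (0.37, 0.260), *Nf2* (0.16, 0.555), and *Tead4* (-0.12, 0.830) moved by over 1.5 times from the values given with each gene. The slow-growing and fast-growing comparisons share their 3 controls.

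**Figure D1:**
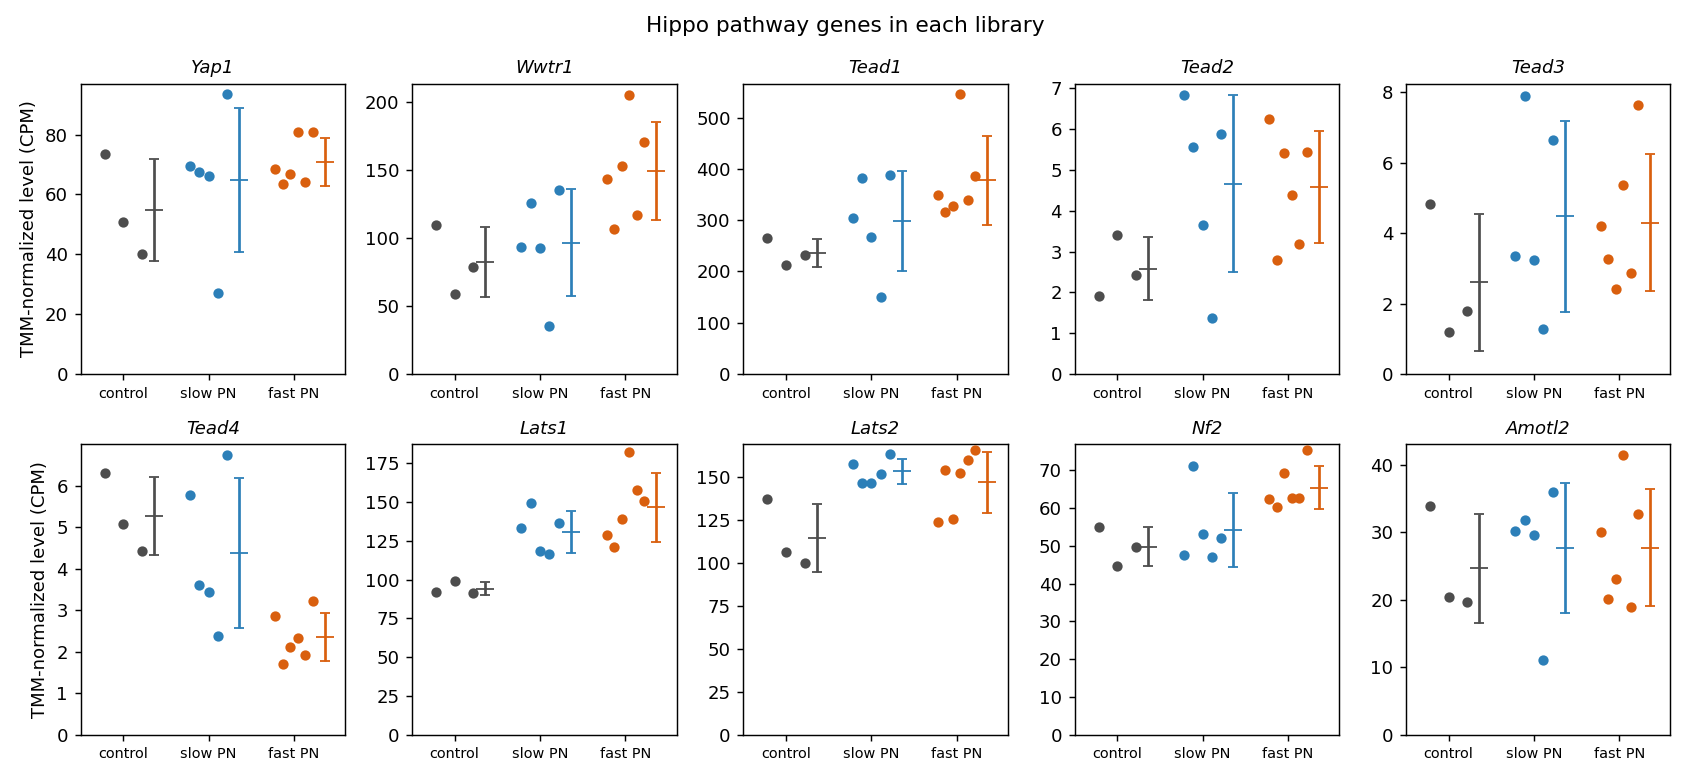
TMM-normalized levels (CPM, linear axes from 0) of the 10 genes in the control, slow-growing PN, and fast-growing PN libraries, with each point a library and the bars mean ± SD. *Tead4* in all 6 fast-growing PNs lies under all 3 controls, and *Lats1* lies over the controls in all 11 PNs.

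Of the coactivator genes, *Wwtr1* was called in fast-growing PNs and *Yap1* was not. *Wwtr1* (chromosome 3, 57455649 to 57575910, minus strand of mm10) was at 109, 58.6, and 78.3 CPM in DRG3, DRG4, and DRG5. In slow-growing PNs it was at 93.6, 126, 92.9, 35.3, and 135 CPM in 1079, 1198A, 1202, 1203, and 1206. In fast-growing PNs the lowest was 106, the median 148, and the highest 205 CPM. Only DRG3 reached into the range of the fast-growing PNs, and PN 1203 lay under every control. Against controls, fast-growing PNs had a log2 fold change of 0.81 (SE 0.26, adjusted p = 0.0390) and slow-growing PNs one of 0.20 (SE 0.41, adjusted p = 0.749), or 0.44 without PN 1203. The rise in fast-growing PNs was close to the threshold: without DRG4 its adjusted p was 0.153, without DRG5 0.103, without PN 1053 0.0620, without PN 1179 0.0514, and without PN 1216 0.0566. It held without PN 1191 (0.70, adjusted p = 0.0490), and was lost in 1 fit over all 14 libraries (0.0859) and once each library was corrected for a trend with transcript length and GC content (0.103).

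*Yap1* (chromosome 9, 7931999 to 8004596, minus strand) was at 73.5, 50.7, and 40.0 CPM in the controls. The slow-growing PNs had 69.6, 67.4, 66.2, 27.1, and 93.7 CPM in the same order as above. The fast-growing PNs were close together, with a lowest level of 63.6, a median of 67.7, and a highest of 80.9 CPM. DRG3 lay inside that range and the other controls lay under it. On the log2 scale *Yap1* differed from controls by 0.33 (SE 0.18, adjusted p = 0.210) in fast-growing and 0.21 (SE 0.37, adjusted p = 0.715) in slow-growing PNs. Without DRG3, the control with the highest level, *Yap1* was called higher in fast-growing PNs (0.57, adjusted p = 0.0302). *Wwtr1* made up 62.6 ± 6.12% of the summed length-scaled level of the pair in controls (SD, n = 3), 62.1 ± 3.28% in slow-growing PNs (n = 5), and 69.8 ± 3.16% in fast-growing PNs (n = 6). The shares of controls (56.5% to 68.8%) and fast-growing PNs (65.3% to 74.0%) overlapped. Their size depends on the length used. Over all annotated exons, mean levels in controls were 5.91 CPM per kb for *Yap1* and 17.2 for *Wwtr1*, beside 10.4 and 17.5 over the longest transcript.

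Among the TEAD genes, the most abundant rose and a minor paralog fell. *Tead1* (chromosome 7, 112679318 to 112906807, plus strand), the main TEAD gene of this tissue by level, was at 265, 212, and 231 CPM in controls. The slow-growing PNs had 305, 382, 268, 150, and 389 CPM, and the fast-growing PNs 316 (lowest), 344 (median), and 546 CPM (highest). Every fast-growing PN was above every control, and PN 1203 was below them all. Fast-growing PNs exceeded controls by 0.63 on the log2 scale (SE 0.20, adjusted p = 0.0413), and slow-growing PNs differed by 0.30 (SE 0.31, adjusted p = 0.519). The call in fast-growing PNs held in 3 of the 9 fits that left out 1 library, with adjusted p from 0.0230 without PN 1191 to 0.147 without DRG4. It was lost without each of the 3 controls and without PNs 1053, 1214, and 1216, as well as in the fit over all 14 libraries (adjusted p = 0.0771), without the expression filter (0.0534), and with the length and GC trend removed (0.185).

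*Tead4* (chromosome 6, 128224288 to 128300823, minus strand), a TEAD gene known from early embryos and muscle differentiation, was at 6.30, 5.08, and 4.43 CPM in controls, from 42 to 73 counts. The slow-growing PNs had 5.77, 3.61, 3.45, 2.37, and 6.75 CPM, on both sides of the controls. The fast-growing PNs had a lowest level of 1.70, a median of 2.23, and a highest of 3.22 CPM, from 25 to 52 counts, all under every control. Compared with controls, the log2 fold change in fast-growing PNs was -1.20 (SE 0.27, adjusted p = 0.00776), a fold of 0.436, and that in slow-growing PNs was -0.30 (SE 0.38, adjusted p = 0.600). This call held in all 9 fits that left out 1 library, with adjusted p from 0.00846 to 0.0285. Skeletal muscle markers were also lower in fast-growing PNs (13 of 15 called, with sums of 104 to 2515 CPM). In slow-growing PNs the muscle sums were 3651, 45.3, 3808, 1155, and 71.4 CPM in the order of the *Tead4* levels above. In the same order their fat sums were 306, 2131, 2146, 45.6, and 3547 CPM. Their pericyte and smooth muscle sums were 225, 154, 234, 206, and 1082 CPM. The part of each of these tissues in the *Tead4* levels was not tested on its own. A fit with muscle and fat scores as covariates gave *Tead4* a log2 fold change of -2.49 (adjusted p = 0.678). That fit called 0 of all 16037 genes by edgeR (1108 had an unadjusted p under 0.05), so the lost call is not particular to *Tead4*.

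*Tead2* and *Tead3* were rare transcripts. *Tead2* (chromosome 7, 45215753 to 45233644, plus strand) was at 1.90 to 3.42 CPM in controls, 1.37 to 6.84 CPM in slow-growing PNs, and 2.79 to 6.25 CPM in fast-growing PNs. *Tead3* (chromosome 17, 28331671 to 28350817, minus strand) was at 1.20 to 4.84, 1.28 to 7.89, and 2.41 to 7.65 CPM in the same groups. All groups overlapped in both genes. Log2 fold changes in fast-growing PNs were 0.77 (SE 0.35, adjusted p = 0.123) for *Tead2* and 0.68 (SE 0.51, adjusted p = 0.356) for *Tead3*. In slow-growing PNs they were 0.81 (SE 0.51, adjusted p = 0.304) and 0.75 (SE 0.66, adjusted p = 0.454). The size of both *Tead3* values depends on DRG3, which had 4.84 CPM against 1.20 in DRG4 and 1.79 in DRG5.

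The balance of the 4 TEAD genes was described as shares of their summed length-scaled level, with no test. These shares use the longest transcript (9964 bases for *Tead1* and 3076 for *Tead4*), and all annotated exons are longer (13570 and 3598 bases). *Tead4* held 6.35 ± 0.682% of it in controls (5.57% to 6.80%), 4.25 ± 1.04% in slow-growing PNs (2.70% to 5.29%), and 1.89 ± 0.440% in fast-growing PNs (1.30% to 2.40%). The 3 groups did not overlap in this share. *Tead1* held 88.1 ± 1.43%, 88.3 ± 1.81%, and 91.8 ± 2.08% in the same order, with overlapping ranges. *Tead2* and *Tead3* each held between 1.44% and 5.68% in every library.

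**Figure D2:**
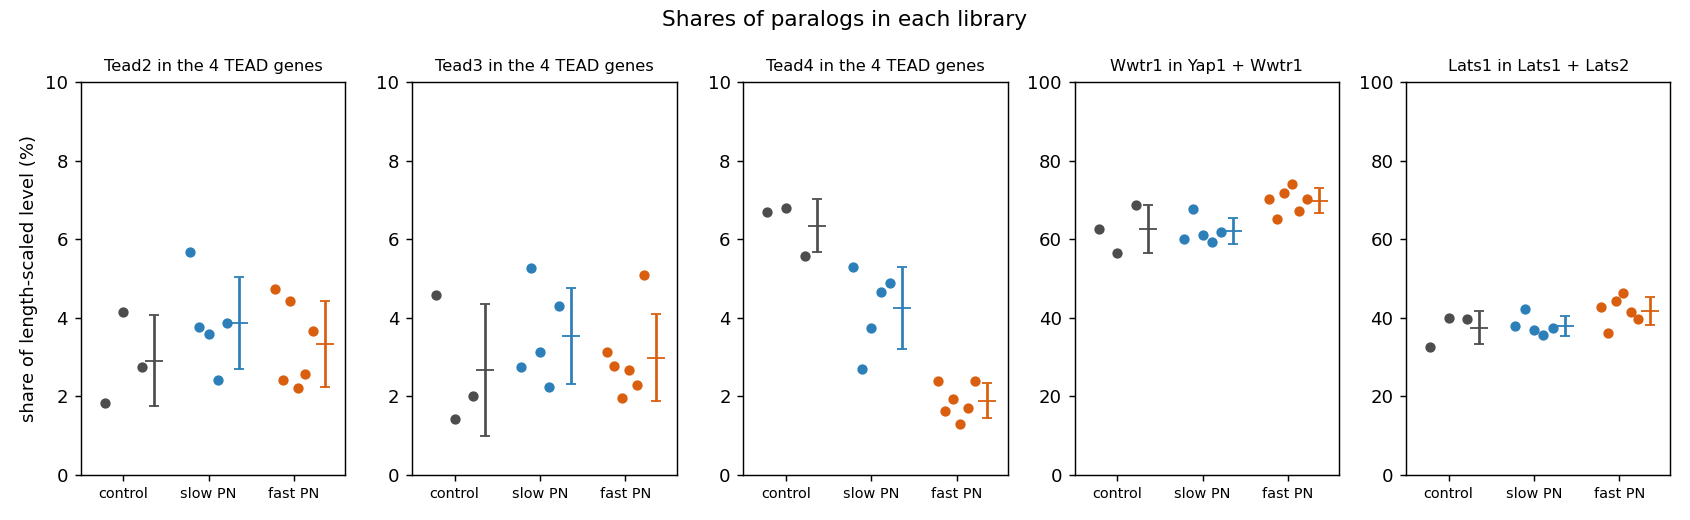
Share (%) of the length-scaled level that each named gene takes of its paralog family in each library, with each point a library and the bars mean ± SD; the TEAD panels run from 0 to 10% and the others from 0 to 100%. The share of *Tead4* falls from 5.57% to 6.80% in controls to 1.30% to 2.40% in fast-growing PNs, and those of *Tead2*, *Tead3*, and *Lats1* overlap between groups.

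The LATS kinases inhibit YAP and TAZ. *Lats1* (chromosome 10, 7681214 to 7716460, plus strand) was at 92.3, 99.1, and 91.4 CPM in controls, a narrow range. The slow-growing PNs had 133, 149, 119, 116, and 136 CPM, and the fast-growing PNs 121 (lowest), 145 (median), and 183 CPM (highest). All 11 PNs were above all 3 controls. *Lats1* exceeded controls by 0.59 on the log2 scale (SE 0.15, adjusted p = 0.0164) in fast-growing PNs, and differed by 0.43 (SE 0.15, adjusted p = 0.0987) in slow-growing PNs. The call in fast-growing PNs held in all 9 fits that left out 1 library (adjusted p from 0.00901 to 0.0464), and was lost when the length and GC trend was removed (0.37, adjusted p = 0.124). In slow-growing PNs, *Lats1* was called higher by DESeq2 (adjusted p = 0.0185), in 1 fit over all 14 libraries (0.0361), and with a score of the neuron markers as a covariate. These were 3 of 8 alternative settings, over which its log2 fold change ran from 0.17 to 0.51.

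*Lats2* (chromosome 14, 57689662 to 57758388, minus strand) was at 137, 107, and 100.1 CPM in controls. The slow-growing PNs, at 158, 146, 147, 152, and 164 CPM, were close together and all above the controls. The fast-growing PNs spread from 124 to 166 CPM with a median of 153 CPM, and overlapped DRG3. Its differences from controls, 0.38 (SE 0.15, adjusted p = 0.141) in slow-growing and 0.31 (SE 0.14, adjusted p = 0.132) in fast-growing PNs on the log2 scale, did not pass. DESeq2 called it in slow-growing PNs (adjusted p = 0.0166). A gene model named *Gm49361* shares 2955 exonic bases with *Lats2* on the same strand and has no row in the count table, so how reads there were assigned is not known. Slow-growing PNs lay above all controls in these 2 kinase genes, 2 of the 10 genes, where 11.1% of all genes did so. *Lats1* held 37.5 ± 4.17%, 38.0 ± 2.58%, and 41.8 ± 3.59% of the length-scaled LATS level in controls, slow-growing, and fast-growing PNs, shares that overlapped. These too depend on the length used: over all annotated exons, *Lats1* was at 12.9 and *Lats2* at 16.4 CPM per kb in controls, beside 13.1 and 22.1.

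*Nf2* (chromosome 11, 4765845 to 4849536, minus strand), the schwannoma suppressor gene upstream of LATS, was at 55.0, 44.8, and 49.6 CPM in controls. The slow-growing PNs had 47.6, 71.2, 53.2, 47.0, and 52.0 CPM, in which PN 1198A stood above the others. The fast-growing PNs had a lowest level of 60.4, a median of 62.7, and a highest of 75.3 CPM, all above the controls. In log2 fold change, fast-growing PNs were at 0.34 (SE 0.12, adjusted p = 0.0560), just outside the threshold, and slow-growing PNs at 0.08 (SE 0.18, adjusted p = 0.766). In fast-growing PNs it passed with DESeq2 (adjusted p = 0.0272), with the trend of length and GC content removed (0.0453), and without PN 1071 (0.0472). With muscle and fat scores as covariates the value in fast-growing PNs turned to -0.35 and was not called. Fast-growing PNs did not overlap controls in 4 of the 10 genes, with *Lats1*, *Nf2*, and *Tead1* higher and *Tead4* lower, and 32.5% of all genes tested did so.

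*Amotl2* (chromosome 9, 102716672 to 102733418, plus strand), a junction protein that binds YAP and is itself a YAP target, was at 33.9, 20.4, and 19.6 CPM in controls. The slow-growing PNs had 30.2, 31.8, 29.5, 11.1, and 35.9 CPM, and the fast-growing PNs 18.9 (lowest), 26.5 (median), and 41.5 CPM (highest). The groups overlapped, with PN 1203 lowest and PN 1191 highest. Neither log2 fold change passed, at 0.14 (SE 0.37, adjusted p = 0.818) in slow-growing PNs and 0.13 (SE 0.29, adjusted p = 0.782) in fast-growing PNs. Without PN 1191 the latter was -0.03 (adjusted p = 0.941).

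**Figure D3:**
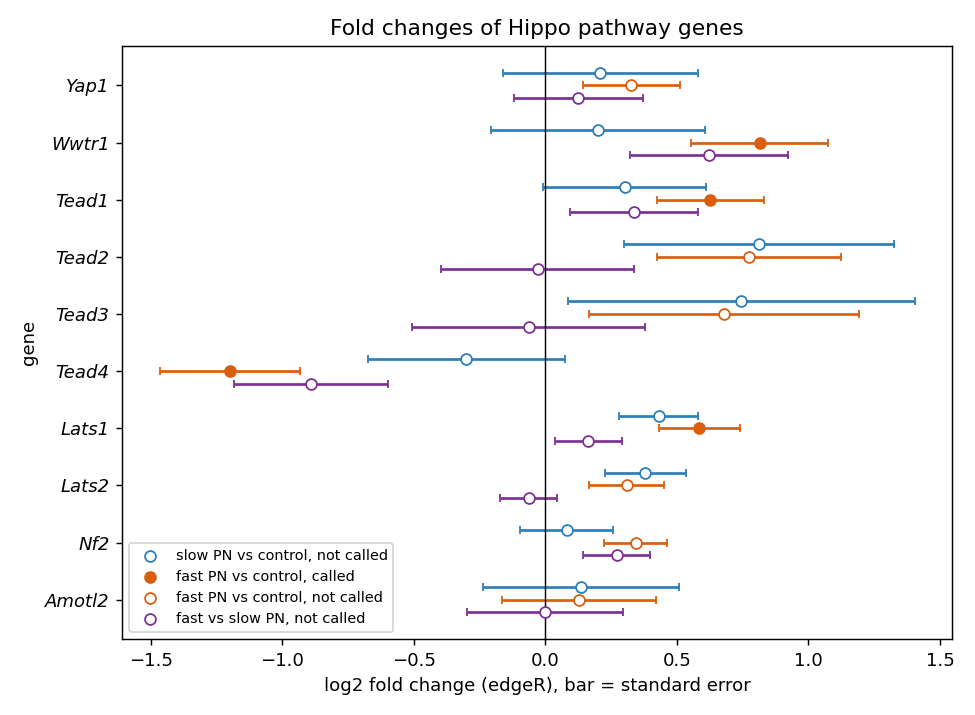
Log2 fold changes (horizontal axis) of the 10 genes with their standard errors in slow-growing PNs versus controls, fast-growing PNs versus controls, and fast-growing versus slow-growing PNs; filled points were called at an adjusted p under 0.05 by edgeR. The 4 filled points are *Wwtr1*, *Tead1*, *Lats1*, and *Tead4* in fast-growing PNs versus controls.

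The direct comparison of fast-growing with slow-growing PNs asked whether the pathway's transcripts differed with growth rate. By edgeR 0 of the 10 genes were called, 1 had an unadjusted p under 0.05 (*Tead4*), and DESeq2 called 1 (*Tead4*, lower, adjusted p = 0.0466). Of all 15465 genes, edgeR called 1.27%, 20.4% had an unadjusted p under 0.05, and DESeq2 called 10.3%. The difference was largest for *Tead4* among the 10, at -0.89 on the log2 scale (SE 0.29, adjusted p = 0.119), and next for *Wwtr1*, with 0.62 (SE 0.30, adjusted p = 0.271). *Nf2* differed by 0.27 (SE 0.13, adjusted p = 0.254), and was called higher once PN 1198A was left out (0.39, adjusted p = 0.0473), a fit in which calls over all genes rose from 196 to 1194. The other 7 genes lay between -0.06 and 0.34. For *Wwtr1*, *Yap1*, and *Tead1*, PNs 1203 and 1191 moved the difference: without both, it was 0.27 for *Wwtr1* (adjusted p = 0.544), -0.14 for *Yap1* (0.707), and -7.85e-04 for *Tead1* (0.999). *Tead4* was at -1.07 (adjusted p = 0.0954) without both. Leaving both out also moved other members. Mean levels in slow-growing and fast-growing PNs became 31.9 and 25.0 CPM for *Amotl2*, from 27.7 CPM in each. They became 5.48 and 4.61 CPM for *Tead2* (from 4.66 and 4.58) and 5.28 and 4.08 CPM for *Tead3* (from 4.48 and 4.30). For *Lats1* they became 134 and 140 CPM, from 131 and 147 CPM.

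**Figure D4:**
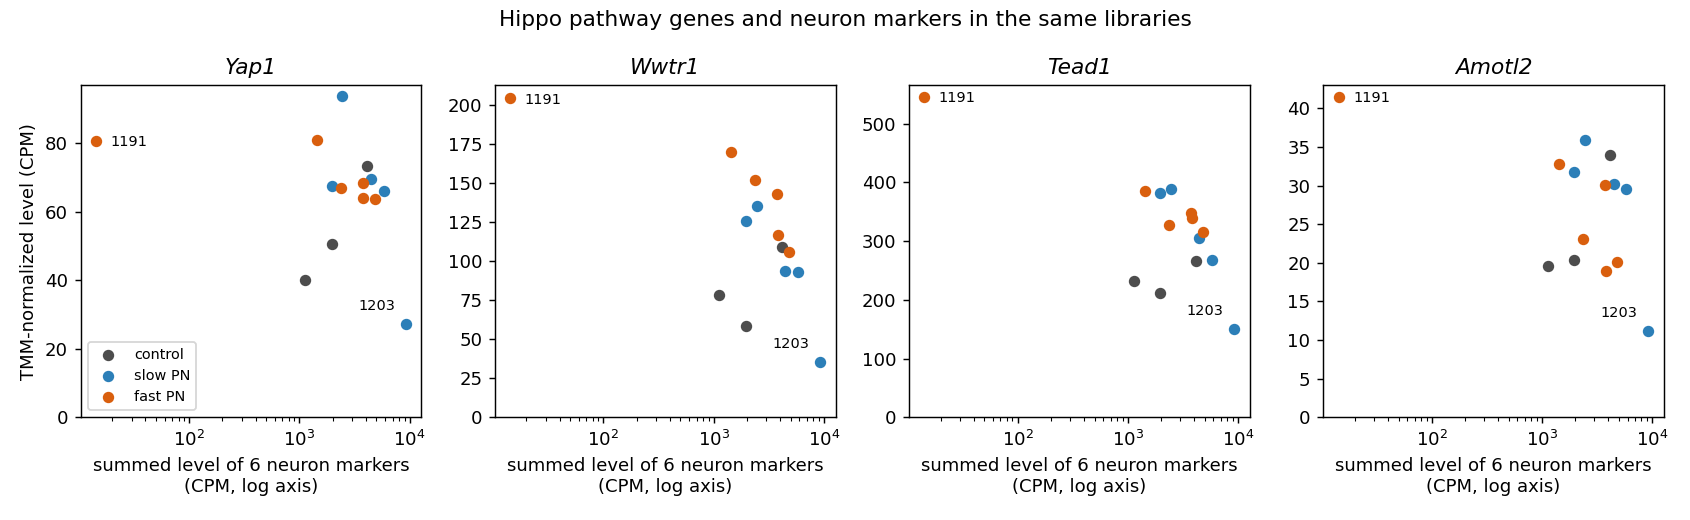
TMM-normalized level (CPM) of *Yap1*, *Wwtr1*, *Tead1*, and *Amotl2* against the summed level of 6 neuron markers (CPM, log axis) in the same 14 libraries, colored by group, with PNs 1203 and 1191 named. PN 1203, at 9255 CPM of neuron markers, has the lowest level of each gene, and PN 1191, at 14.3 CPM, has the highest of *Wwtr1*, *Tead1*, and *Amotl2*.

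Markers of other cell types also differed between libraries. The 6 fibroblast markers summed to 1744 to 3378 CPM in controls, 1158 to 5187 CPM in slow-growing PNs, with the lowest sum in PN 1203, and 4490 to 9348 CPM in fast-growing PNs. PN 1203 also had the lowest perineurial (111 CPM), macrophage (114 CPM), endothelial (86.0 CPM), and fat (45.6 CPM) sums of all libraries. The 4 perineurial markers summed to 185 to 432 CPM in controls and 223 to 911 CPM in fast-growing PNs, and the 6 macrophage markers to 225 to 1637 CPM and 812 to 3728 CPM. Of the perineurial markers, *Cldn1* had means of 78.9 CPM in controls and 404 CPM in fast-growing PNs. The others did not rise with it: *Slc2a1* was at 148 and 154, *Mpzl2* at 32.9 and 21.3, and *Lypd2* at 9.28 and 2.18 CPM. All 6 fibroblast markers were called higher in fast-growing PNs than in controls, as were 4 of 7 SC markers. Of the perineurial markers 1 of 4 was higher, of the 3 satellite glial cell markers 1 was higher and 1 lower, and none of the 6 macrophage and the 6 neuron markers was called. Of the endothelial markers, 3 of 6 were lower, as were 3 of 5 pericyte and smooth muscle markers and 13 of 13 fat markers. The part of fibroblasts, SCs, perineurial cells, macrophages, and vessels in the pathway's levels was not tested. With muscle and fat scores as covariates, 0 of the 10 genes were called in fast-growing PNs, nor was any of all 16037 genes. The log2 fold changes were 0.36 for *Wwtr1* (adjusted p = 0.996), 0.80 for *Lats1* (0.837), and 1.12 for *Tead1* (0.837). The same fit turned *Yap1* (-0.17), *Nf2* (-0.35), *Tead2* (-0.78), *Tead3* (-0.64), and *Amotl2* (-0.068) negative. With a neuron score as a covariate, chosen after seeing the data, *Wwtr1* (0.71, adjusted p = 0.0324), *Lats1* (0.53, 0.00578), *Tead1* (0.52, 0.0113), and *Tead4* (-1.21, 0.00905) were called in fast-growing PNs, as were 6053 of 16037 genes.

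The wider pathway was read from 30 other genes: the MST, MAP4K, and TAO kinases, their scaffolds and membrane partners, and LIM-domain and VGLL proteins that act on LATS, YAP, or TEAD. In slow-growing PNs 0 of 30 were called by edgeR, with 6 at an unadjusted p under 0.05, and DESeq2 called 4, beside 11.3%, 30.3%, and 22.5% of all genes. In fast-growing PNs 6 were higher and 2 were lower, 8 of 30, below the 31.4% of all genes. *Frmd6*, which encodes a FERM-domain protein of the cell cortex, changed most: it was at 71.6, 45.4, and 46.9 CPM in controls and from 162 to 347 CPM (median 191) in fast-growing PNs, without overlap. It rose by 1.95 on the log2 scale (SE 0.30, adjusted p = 0.00117). In slow-growing PNs the difference was 0.97 (SE 0.38, adjusted p = 0.132), with levels of 121, 180, 72.5, 56.6, and 118 CPM.

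*Limd1*, a LIM-domain protein that binds LATS and restrains it, was at 56.6, 62.1, and 59.5 CPM in controls and 95.7 to 187 CPM (median 124) in fast-growing PNs, higher by 1.06 on the log2 scale (SE 0.22, adjusted p = 0.00525). Its relative *Ajuba* went the other way, from 8.29, 17.5, and 15.7 CPM to 5.17 to 11.3 CPM (log2 -0.98, SE 0.31, adjusted p = 0.0371). The casein kinase gene *Csnk1e*, whose family marks YAP for degradation, rose from 20.7 to 26.7 CPM in controls to 34.1 to 42.3 CPM (log2 0.69, SE 0.12, adjusted p = 0.00241). The upstream kinase genes *Map4k4* (log2 0.79, SE 0.20, adjusted p = 0.0162), *Taok1* (log2 0.51, SE 0.14, adjusted p = 0.0208), and *Stk3* (log2 0.74, SE 0.25, adjusted p = 0.0485), which encodes MST2, were higher. *Vgll4*, whose product competes with YAP for TEAD, was lower (log2 -0.69, SE 0.23, adjusted p = 0.0486). *Frmd6*, *Limd1*, and *Csnk1e* were called in all 9 fits that left out 1 library. *Map4k4* and *Taok1* lost the call without DRG4 (adjusted p = 0.0616 and 0.0808) and without DRG5 (0.0624 and 0.0692), and *Taok1* also with the length and GC trend removed (0.113). *Ajuba*, *Stk3*, and *Vgll4* kept it in only 2, 1, and 1 of the 9, with adjusted p up to 0.164, 0.180, and 0.226, and with the trend removed they were at 0.0838, 0.0956, and 0.240. Over 8 alternative settings *Ajuba* and *Stk3* were called in 4 each and *Vgll4* in 3, with *Vgll4* from -1.93 to -0.34. With muscle and fat scores as covariates none of these 8 regulator genes was called, and the log2 fold changes of *Csnk1e* (0.32), *Stk3* (0.46), *Taok1* (0.84), and *Vgll4* (-1.93) moved by over 1.5 times. In fast-growing versus slow-growing PNs 0 of 30 were called by edgeR, with 5 at an unadjusted p under 0.05, and DESeq2 called 1, beside 1.27%, 20.4%, and 10.3% of all genes.

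Genes known as YAP/TAZ targets did not move one way. The list of 22 genes includes *Lats2* and *Amotl2*. It was chosen with earlier results of these data known, so its counts beside those of all genes are descriptions only. In fast-growing PNs 8 were higher and 3 were lower than in controls, 11 of 22, where 14.8% and 16.7% of all genes were. The 3 lower ones were the classical readouts *Ccn1* and *Ccn2*, matricellular proteins that the table lists under the older symbols *Cyr61* and *Ctgf*, and *Ankrd1*, an ankyrin-repeat protein of muscle and injured tissue. *Ccn1* (chromosome 3, 145646976 to 145649981) was at 42.6, 47.6, and 68.5 CPM in controls. In slow-growing PNs it was at 25.4, 22.1, 9.64, 5.93, and 24.0 CPM, and in fast-growing PNs at 7.02 (lowest), 11.5 (median), and 22.6 CPM (highest). Every PN was under every control. In fast-growing PNs the log2 fold change was -2.13 (SE 0.33, adjusted p = 0.00118), a call that held in all 9 fits that left out 1 library. It was -0.72 (adjusted p = 0.994) with muscle and fat scores as covariates. In slow-growing PNs it was -1.64 (SE 0.46, adjusted p = 0.0548), and it was called without PN 1203 (-1.40, adjusted p = 0.0382), by DESeq2 (0.00957), in 1 fit over all 14 libraries (0.0209), and with the neuron score as a covariate (0.0406). Its adjusted p reached 0.211 without DRG5 and 0.951 with muscle and fat scores.

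*Ccn2* (chromosome 10, 24595442 to 24598683) was at 98.2, 53.2, and 94.8 CPM in controls and at 15.6, 15.8, 8.02, 5.38, and 62.9 CPM in slow-growing PNs. In fast-growing PNs it ran from 5.58 to 52.7 CPM with a median of 23.0 CPM, under every control. PN 1206 alone among PNs reached the controls' range. Against controls, fast-growing PNs were at -1.77 on the log2 scale (SE 0.58, adjusted p = 0.0434) and slow-growing PNs at -1.96 (SE 0.72, adjusted p = 0.112). The first call held in 3 of the 9 fits that left out 1 library (adjusted p up to 0.131, without DRG5) and was lost in the fit over all 14 libraries (0.0814) and with the length and GC trend removed (0.0647), and without PN 1206 the slow-growing PNs were called (-2.90, adjusted p = 0.0108). With muscle and fat scores as covariates *Ccn2* was at -4.27 (adjusted p = 0.784) in fast-growing PNs.

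*Ankrd1* (chromosome 19, 36111961 to 36120099) was at 1.38, 0.923, and 8.66 CPM in controls. It had 0 counts in 3 of the 5 slow-growing and 3 of the 6 fast-growing PNs, and at most 0.867 CPM in the others. The fitted log2 fold change of -5.11 (SE 1.08, adjusted p = 0.00598) in fast-growing PNs depends on the count added to such low values, and without DRG5, the highest control, it was -3.38 (adjusted p = 0.0629). With muscle and fat scores it was -9.29 and not called (adjusted p = 0.888). In slow-growing PNs the fitted value was -3.95 (SE 1.22, adjusted p = 0.0717), called by DESeq2 (0.0343), in the fit over all 14 libraries (0.0366), and without PN 1206 (0.0476), and at -2.31 (0.387) without DRG5. The muscle sums of DRG3, DRG4, and DRG5 were 4093, 9363, and 16630 CPM, in the order of the control levels above. PN 1206, with the highest *Ankrd1* level of the PNs (0.867 CPM), had a muscle sum of 71.4 CPM. Pericyte and smooth muscle cells express *Ccn1* and *Ccn2*. Their 5 markers summed to 695 to 918 CPM in controls and 155 to 289 CPM in fast-growing PNs. Slow-growing PNs had sums of 225, 154, 234, 206, and 1082 CPM in 1079, 1198A, 1202, 1203, and 1206. Means in controls and fast-growing PNs were 325 and 32.8 CPM for *Acta2*, 188 and 14.6 for *Myh11*, and 137 and 20.7 for *Myl9*. *Rgs5* was at 77.9 and 69.9 CPM and *Pdgfrb* at 57.6 and 69.5 CPM. PN 1216, with the highest *Ccn2* level of the fast-growing PNs, summed to 210 CPM. The part of each of these tissues in the fall of *Ccn1*, *Ccn2*, and *Ankrd1* was not tested on its own.

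**Figure D5:**
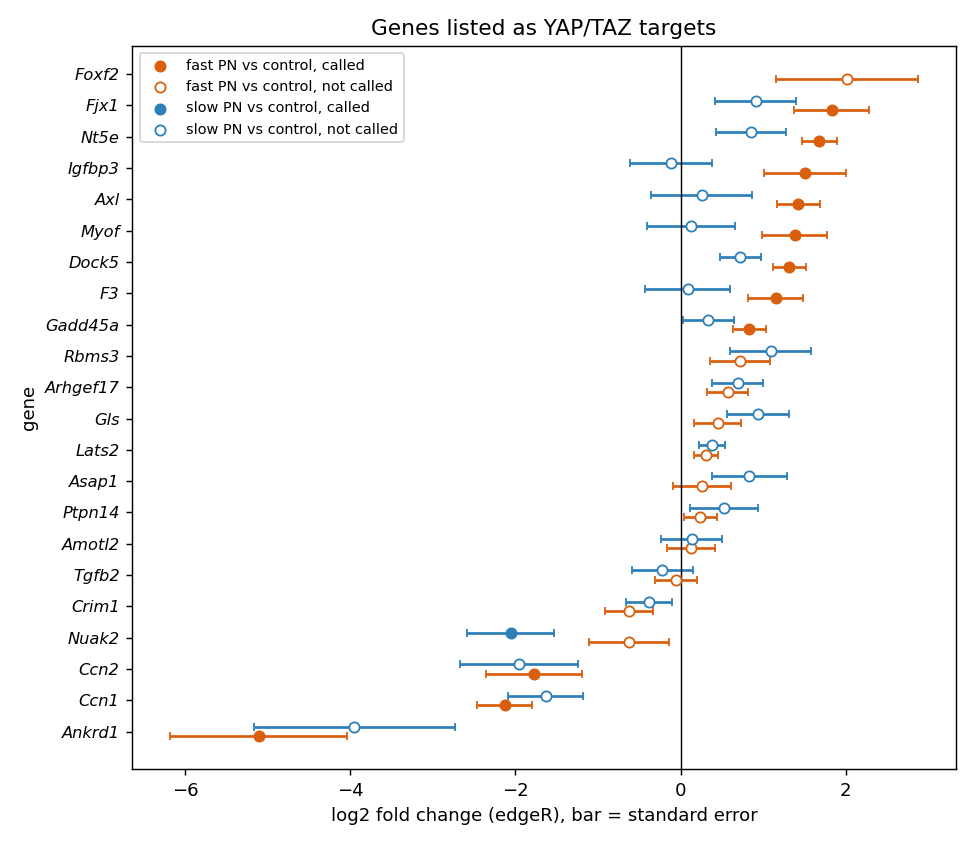
Log2 fold changes (horizontal axis) with standard errors of 22 genes listed as YAP/TAZ targets in fast-growing and slow-growing PNs, each versus the same 3 controls, ordered by the value in fast-growing PNs; filled points were called by edgeR. The filled points of fast-growing PNs are 8 at the right, with *Axl*, *Nt5e*, and *Dock5* among them, and 3 at the left, *Ccn2*, *Ccn1*, and *Ankrd1*.

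The higher targets included *Axl*, a receptor tyrosine kinase, at 133, 149, and 144 CPM in controls and 260 to 568 CPM (median 404) in fast-growing PNs. It rose by 1.42 on the log2 scale (SE 0.26, adjusted p = 0.00306). *Nt5e*, the ecto-nucleotidase CD73 of mesenchymal cells, rose by 1.68 (SE 0.21, adjusted p = 3.92e-04), from 24.2 to 34.5 CPM in controls to 72.2 to 126 CPM. The guanine exchange factor gene *Dock5* rose by 1.31 (SE 0.20, adjusted p = 0.00108), and *Myof*, a membrane repair gene, by 1.38 (SE 0.39, adjusted p = 0.0239). *Fjx1* and the DNA damage gene *Gadd45a* rose by 1.83 (SE 0.45, adjusted p = 0.0132) and 0.83 (SE 0.20, adjusted p = 0.0114), from 0.950 to 1.90 CPM and 5.63 to 7.69 CPM in controls. *Axl*, *Nt5e*, and *Dock5* were called in all 9 fits that left out 1 library, *Gadd45a* in all but that without DRG4 (adjusted p = 0.0551), *Fjx1* in all but those without DRG4 (0.0587) and DRG5 (0.0569), and *Myof* in all but those without each of the controls (up to 0.0757). With muscle and fat scores as covariates none of these 6 was called, and *Dock5* was at 0.27 and *Fjx1* at -0.079. The fit over all 14 libraries lost *Axl* (adjusted p = 0.0535) and *Myof* (0.0534), and removing the length and GC trend lost *Myof* (0.0574). Slow-growing PN 1198A had 444 CPM of *Axl*, in the range of the fast-growing PNs, and the other slow-growing PNs had 44.7 to 139 CPM.

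In slow-growing PNs 1 of 21 tested targets was called, beside 11.3% of all genes. This was *Nuak2*, a stress-activated kinase gene named after its values were seen. It was at 2.59, 8.59, and 12.0 CPM in controls and 1.003 to 2.66 CPM in slow-growing PNs, a difference of -2.06 on the log2 scale (SE 0.53, adjusted p = 0.0409) that was called in 1 of the 8 fits that left out 1 library. It was -1.51 (adjusted p = 0.114) with the neuron score, -0.85 (0.962) with muscle and fat scores, and -1.88 (0.0619) with the length and GC trend removed. DESeq2 called 5 targets in this comparison, near its 22.5% of all genes. In fast-growing versus slow-growing PNs edgeR called 0 of 21, with 9 at an unadjusted p under 0.05, and DESeq2 called 3, beside 1.27%, 20.4%, and 10.3% of all genes. *Nuak2* was 1.45 higher on the log2 scale in fast-growing PNs (SE 0.36, adjusted p = 0.0625), at 3.06 to 8.17 CPM against 1.003 to 2.66 CPM.

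The genes whose profiles over the 14 libraries were most like those of *Yap1*, *Wwtr1*, and *Nf2* were found by the root mean square difference of centred log2 levels over 16283 genes. For *Yap1*, whose own profile had a root mean square of 0.43, they were *Tgfbr3* (0.17), *Plekhg2* (0.18), and the protocadherin gene *Fat1* (0.19), one of the 30 regulators. For *Wwtr1*, with 0.62, they were *Cald1* (0.13), *Crtap* (0.17), and *Abi3bp* (0.18), of which *Cald1* had means of 200.2, 209, and 346 CPM in controls, slow-growing, and fast-growing PNs. For *Nf2*, with 0.23, they were *Ppp4r1*, *Sertad2*, and *Ank*, each at 0.12. These are descriptions over libraries that share depth, tissue makeup, and processing.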

How the data were processed

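Total RNA of 14 mouse tissues was amplified (Ovation RNA-Seq System v2) and sequenced. Per the labels and the methods, the authors called bases with CASAVA 1.4, checked reads with FastQC 0.11.0, aligned to mm10 with TopHat2 2.0.9, and counted reads per gene with featureCounts 1.5.2; strand settings are not given in the sources used here. What the authors deposited are raw read counts for 24062 genes. A second deposited table of TMM-normalized log2 values, made by the authors with edgeR 3.16.5, was not used here, nor were single-cell or human samples.

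Counts were analysed in R 4.3.3 with edgeR 4.0.16: filterByExpr, TMM factors, and the quasi-likelihood test with Benjamini-Hochberg adjustment over all genes tested, with only the libraries of a comparison in its fit and no covariate. A gene was called at an adjusted p under 0.05. The labels do not say more of how samples of a group were taken than 1 mouse each, and controls and PNs were different tissues as well as genotypes, which cannot be told apart here. The members and gene lists were chosen with earlier results of these data known. Named were all 10 members, up to 8 called genes of each other list by lowest adjusted p, *Ccn1*, *Ccn2*, and *Ankrd1*, and the 3 genes nearest in profile to *Yap1*, *Wwtr1*, and *Nf2*.

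Alternatives were DESeq2 1.42.0, its size factors, no expression filter, 1 fit over 14 libraries, removal of length and GC trends, marker scores (mean of log2(CPM + 1)) as covariates, and each library left out in turn. A neuron score as covariate and leaving out PNs 1203 and 1191 were chosen after seeing the data. The main fit was tested on simulated counts in which 200 genes changed by 2 on the log2 scale. It recovered 54.5% of them in slow-growing PNs versus controls and 73.5% in fast-growing PNs versus controls. Between fast-growing and slow-growing PNs it recovered 76.5%. Of its calls, 4.39%, 5.16%, and 5.56% were false. Smaller changes of single genes were not simulated, so a gene that was not called may still differ. The trend-corrected fit called 0 genes of a simulated length trend in each comparison. Positions and lengths came from the GENCODE annotation of mm10, which matched 22750 genes by symbol, 905 by an older symbol, and not the other 407. Overlaps with genes on the opposite strand were 116 exonic bases for *Yap1* (*Gm20416*), 13 for *Tead2* (*Cd37*), and 665 for *Ccn2* (*Gm15270*). Other named genes with such overlaps were *Fat1* (487, *Gm2366*), *Gadd45a* (337, *E230016M11Rik*), *Csnk1e* (267, *Gm16059*), and *Taok1* (94, *Abhd15*). Without the strand setting, reads there cannot be separated. Promoters came from RefSeq. Figures used matplotlib 3.10.9 in Python 3.11.15.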

Additional observations from a re-analysis of the deposited data

Results flagged for a closer look

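Each of the 10 genes was examined for an outlying library in the slow-growing and the fast-growing PNs, 20 groups in all, and chance marks about 1 in 20. A library stood farther from its group than Dixon's limit in 3. Slow-growing PN 1198A had 71.2 CPM of *Nf2*, above the other slow-growing PNs, which had 47.0 to 53.2 CPM. Fast-growing PN 1191, which had almost no neuron transcripts, had 546 CPM of *Tead1*, above the 316 to 386 CPM of the other fast-growing PNs. Slow-growing PN 1203, which had the most neuron transcripts, had 11.1 CPM of *Amotl2*, below the 29.5 to 35.9 CPM of the other slow-growing PNs.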

How the results depend on the processing

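No paired analysis was possible because the replicate numbers only follow the order of the samples and pair no mice. Of the 4 members called in fast-growing PNs, *Tead4* and *Lats1* held with every single library left out. With muscle and fat scores as covariates, 0 members, 0 regulators, and 0 targets were called in fast-growing PNs and 0 targets in slow-growing PNs. In this fit no gene of any comparison was called. In fast-growing PNs versus controls, 5 member log2 fold changes turned negative (*Yap1* -0.17, *Nf2* -0.35, *Tead2* -0.78, *Tead3* -0.64, *Amotl2* -0.068), as did *Fjx1* (-0.079). In fast-growing versus slow-growing PNs it turned *Tead2* (0.11), *Tead3* (0.47), *Amotl2* (0.54), and *Ccn1* (0.014) positive.

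In slow-growing PNs versus controls, DESeq2 called 2 members, 4 regulators, and 5 targets, and the fit over 14 libraries called 1, 4, and 4. Calls over all genes rose as well, from 1769 of 15714 to 3529 of 15714 and 3280 of 16283. Removing the length and GC trend gave 1 regulator and 0 targets (1111 of 15550 genes in all). A neuron score gave 1 member, *Lats1* (1969 of 15714 genes), and leaving out PN 1203 gave 1 regulator (1954 of 15571 genes). In fast-growing PNs versus controls, the fit over 14 libraries called 2 members and 7 targets (4801 of 16283 genes), and the trend-corrected fit 2 members and 5 regulators (4465 of 15861 genes). *Amotl2* changed sign with the neuron score (-0.0087) and without PN 1191 (-0.030). In fast-growing versus slow-growing PNs, DESeq2 called 1 member, 1 regulator, and 3 targets (1592 of 15465 genes, from 196). Without both PNs, 1 target was called (509 of 15546 genes), and *Yap1* (-0.14), *Tead1* (-7.85e-04), and *Ccn2* (-0.17) changed sign, as did *Ccn2* with the neuron score (-0.083). *Amotl2*, close to 0 in the main fit, was 0.00105 with no expression filter and 0.065 with the trend removed. The causes were not tested.

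Leaving out 1 library at a time gave 2 to 5 members, 3 to 9 regulators, and 5 to 11 targets in fast-growing PNs, 0 members, 0 to 1 regulators, and 0 to 3 targets in slow-growing PNs, and 0 to 1 members, 0 to 2 regulators, and 0 to 4 targets between fast-growing and slow-growing PNs. Over all genes, these fits called 599 to 2454 in slow-growing PNs and 2 to 1194 between fast-growing and slow-growing PNs. The counts in fast-growing PNs fell to 2 members without DRG4, DRG5, PN 1053, or PN 1216, and to 3 regulators without DRG4 or DRG5. Calls over all genes, 5043 of 16037, fell as well, to 3603 of 16360 without DRG4, 3342 of 16347 without DRG5, 4346 of 15906 without PN 1053, and 4395 of 15931 without PN 1216. Signs changed in these fits for differences that were not called. In slow-growing PNs versus controls, *Nf2* ran from -0.036 to 0.16 and *Amotl2* from -0.0064 to 0.43. In fast-growing PNs, *Amotl2* ran from -0.030 to 0.40. Between fast-growing and slow-growing PNs, *Yap1* ran from -0.071 to 0.30, *Tead2* from -0.26 to 0.17, *Tead3* from -0.31 to 0.24, *Amotl2* from -0.20 to 0.11, and *Ccn2* from -0.18 to 1.13. Between 25 and 76 counts lie behind *Tead4*, and 13 to 114 behind *Tead2* and *Tead3*, and the standard errors of *Tead2* and *Tead3* were the largest of the 10 in each comparison.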
